A study of Mus musculus with 2 samples.

Results

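The sites described here are the DNase-accessible sites of the mouse cerebral cortex that hold a wide footprint, a run of 30 bp or more protected from DNase I and called in both mice. A footprint of 30 bp or more (end minus start) in the deposited list of either library was a member when a footprint of 30 bp or more in the other covered at least 50% of it. Chromosomes 1 to 19 and X were used. The members were 4431 of 288172 footprints in replicate 1 (1.54%) and 4423 of 224558 footprints in replicate 2 (1.97%). They lay at 4434 loci, of which 4420 had exactly 1 member in each mouse. The loci fell in 4182 of 82968 accessible sites (5.04%), a site being peaks of the shorter deposited peak lists of both mice merged where they touch, and 32 members of each library lay outside a peak. The members were chosen by measured values, the width of a footprint and its repetition in the other mouse, so both are given as description.

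The study measured chromatin accessibility by DNase-seq in 2 samples of the left cerebral cortex, numbered in the labels as separate males, at an age of 36 days, each giving 1 library. Both samples were B6CASTF1/J, first-generation hybrids of C57BL/6J and CAST/EiJ, so that each carries a CAST/EiJ copy beside the reference-like copy of every autosome. No treatment was recorded. The labels also give both samples the same donor identifier. Whether they are 2 animals is not settled by the labels: they are called 2 mice here after the numbering, and a footprint repeated in the other mouse may be repeated within 1 animal. The tissue was bulk cortex holding neurons, glia and vessel cells together, so that fewer cells of a type and less signal per cell cannot be told apart. With 1 group, no comparison between conditions could be made, and each value is given for both libraries.

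DNase I cuts accessible DNA, and a bound protein leaves a stretch with fewer cuts than its surroundings, the footprint. Most sequence-specific factors cover a short stretch, whereas CTCF, a zinc-finger protein that organises chromosome loops together with cohesin, reads a long site with a central core and, at some sites, a further upstream motif. The transcription factors of RNA polymerase III cover much of a transfer RNA (tRNA) gene, with TFIIIC on the internal B box and TFIIIB just before the gene.

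The sequences below show what lay inside the members. Each is the reference sequence (RefSeq GRCm38.p6, the build of the mm10 files) of a member locus, the union of the footprints of both mice, 5′ to 3′ on the strand of its match. Only loci with an exact match whose central 30 bases occur once on the chromosomes used were eligible, and the highest eligible sites of each class were taken. For CTCF, eligibility also depended on the upstream letters described below: far loci had to carry at least 6 of the 7, and near loci few. The CTCF sites printed are therefore not the highest of their class regardless of sequence. They are the 2 highest eligible distal sites and the highest eligible promoter site, with capitals at the 12-base CTCF core. In the set whose footprint reached far upstream of the core in both mice, the capitals also mark the 9 bases at positions -17 to -9 before it.
Psrc1 site: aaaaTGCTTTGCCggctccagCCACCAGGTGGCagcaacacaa
Mxd3 site: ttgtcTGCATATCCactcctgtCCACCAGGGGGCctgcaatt
Pcp4 promoter: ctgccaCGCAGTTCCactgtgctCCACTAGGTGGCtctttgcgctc
The set whose footprint ended close to the core in both mice follows.
Snord12 site: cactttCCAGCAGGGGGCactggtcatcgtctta
Ckb site: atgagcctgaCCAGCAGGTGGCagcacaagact
Kif1b promoter: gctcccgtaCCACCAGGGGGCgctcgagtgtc
The last set gives the highest site for the NRF1, CREB and NFY patterns, the NFY one with more than 1 match, and the highest tRNA gene with a B box, with capitals at the matches.
Snrnp70 promoter, NRF1: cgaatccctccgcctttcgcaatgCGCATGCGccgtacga
Pef1 promoter, CREB: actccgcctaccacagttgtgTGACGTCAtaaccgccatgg
Pan2 promoter, NFY: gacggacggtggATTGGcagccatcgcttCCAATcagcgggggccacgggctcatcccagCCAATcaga
n-TLaag4 tRNA gene, B box: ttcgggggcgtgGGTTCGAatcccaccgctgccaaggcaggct

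The Psrc1 locus lay at chr3:108389442-108389484 on the minus strand, the Mxd3 locus at chr13:55327870-55327911 on the plus strand and the Pcp4 locus at chr16:96467566-96467611 on the plus strand. The Snord12 locus lay at chr2:167072223-167072256 and the Ckb locus at chr12:111668520-111668552, both on the plus strand, and the Kif1b locus at chr4:149307902-149307933 on the minus strand. The Snrnp70 locus was chr7:45395709-45395748 and the Pef1 locus chr4:130107590-130107630, both on the plus strand. The Pan2 locus was chr10:128303266-128303334 on the minus strand, and the tRNA locus chr7:120917565-120917607 on the plus strand. Sites are named by the nearest annotated start, which lay 3346 bp away for Psrc1, 1471 bp for Mxd3, 6765 bp for Snord12 and 2894 bp for Ckb. The Psrc1, Snord12 and Ckb sites were intergenic and the Mxd3 site intronic. The far CTCF sequences were protected over 43 and 40 bp (Psrc1), 40 and 42 bp (Mxd3) and 46 and 42 bp (Pcp4) in replicates 1 and 2. The near ones were protected over 34 and 31 bp (Snord12), 31 and 33 bp (Ckb) and 30 and 31 bp (Kif1b). The difference lay on the left of the core as printed: protection began 21 bp before it at Psrc1 in both mice, and 6 and 3 bp before it at Snord12 in replicates 1 and 2.

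Wide footprints were a small share of all footprints, 7228 (2.51%) in replicate 1 and 11440 (5.09%) in replicate 2, where the median footprint was 9 bp wide in both. The members were 61.3% of the wide footprints of replicate 1 (95% Wilson interval 60.2 to 62.4%) and 38.7% of those of replicate 2 (37.8 to 39.6%). Their median width was 35 bp in replicate 1 and 39 bp in replicate 2, and the widest measured 72 and 78 bp. At the threshold itself, 1079 and 1242 footprints were 30 bp wide, just inside, and 1296 and 1354 were 29 bp wide, just outside. Wilson intervals here and below cover counting error only.

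**Figure D1:**
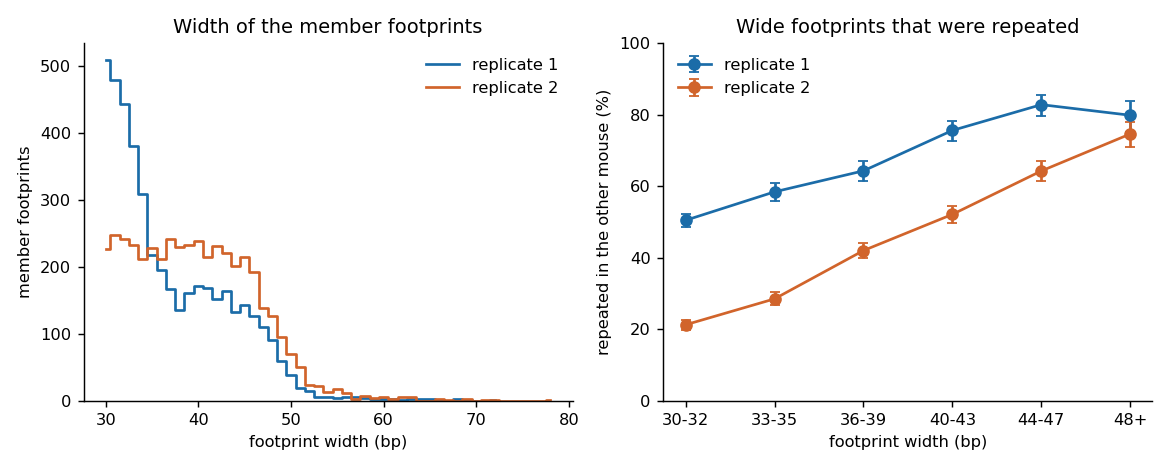
Left, the number of member footprints (y) of each width in bp (x) in replicate 1 (blue) and replicate 2 (orange). Right, the share (%) of wide footprints of each width band that were repeated in the other mouse, with 95% Wilson intervals. Replicate 1 has most members near 30 bp, replicate 2 is flat to about 46 bp, and repetition is higher for wider footprints in both.

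Repetition was higher among wider footprints. Of footprints of 30 to 32 bp, 50.5% of those in replicate 1 and 21.2% of those in replicate 2 were repeated, and of those of 48 bp or more, 79.9% and 74.6%. A wide footprint with no wide partner rarely fell on unprotected DNA: 90.8% of the 2797 in replicate 1 and 93.6% of the 7017 in replicate 2 overlapped a footprint of some width in the other mouse. At 39.5% and 37.4% of them the other library listed at least 2 footprints, so that the same stretch was 1 wide call in 1 mouse and several narrow calls in the other. At the 4420 loci with 1 member in each mouse the footprint was wider in replicate 2 at 2771 and wider in replicate 1 at 1253. The centres differed by a median of 2.5 bp, and both edges were identical at 129 loci. Across these loci the widths in the 2 mice had a Spearman rho of 0.416. Because each member has a partner in the other mouse by the rule, the 2 libraries describe nearly the same loci, and the small SDs below reflect that.

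The protected bases carried low false discovery rates. The deposited false discovery rate of the cut rate was at or under 0.001 over 99.5% of member bases in replicate 1 and 99.6% in replicate 2, against 92.6% and 91.0% in narrower footprints that were also repeated. These rates rest on the same cuts as the footprints themselves.

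Sites with a wide footprint were among the more accessible sites. Here and below, such a site holds a member, and a site with narrower footprints alone holds footprints but no member. The second kind therefore includes sites whose wide footprint was not repeated. Of the wide footprints that were not repeated, 2698 in replicate 1 and 6849 in replicate 2 lay in accessible sites of either kind. Peak height is the signal the authors deposited for each peak, and its normalization is not stated, so heights are read within a library. Among sites with a peak in both mice, those with a wide footprint had a median height of 3.004 in replicate 1 and 2.19 in replicate 2. It was 1.57 and 1.11 at sites with narrower footprints alone, and 1.12 and 0.612 at sites without a footprint. The ratio of the sites with a wide footprint over those with narrower ones alone was 1.92 in replicate 1 and 1.98 in replicate 2. Of the sites with a wide footprint 99.1% had a peak in both mice, against 57.3% of sites with narrower footprints alone. The rule asks for footprints in both mice, and footprints are called from the same cuts, so these figures describe the selection.

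The relation to height differed between promoters and distal sites, where a promoter site has its midpoint within 1000 bp of an annotated start. When the sites in both mice were ranked by mean height into deciles, the share holding a wide footprint was 0 of 4376 in the lowest decile, which allows up to 0.0877%, and 26.9% in the highest. In that highest decile 46.9% of distal sites and 25.6% of promoter sites held one, and in decile 8 25.1% of distal sites and 5.50% of promoter sites did. Within promoters, the median height of sites with a wide footprint was 6.66 in replicate 1 and 4.03 in replicate 2, against 3.14 and 1.69 for narrower footprints alone. At distal sites it was 2.15 and 1.71, against 1.19 and 0.949.

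**Figure D2:**
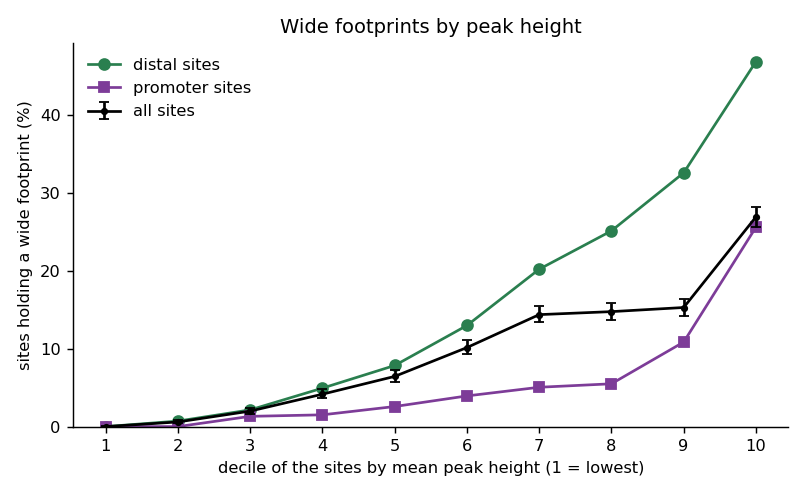
Share (%) of accessible sites that held a member, a repeated wide footprint (y), in each decile of the 43755 sites found in both mice, ranked by mean peak height (x, 1 lowest). Green circles are distal sites, purple squares promoter sites and black points all sites with 95% Wilson intervals; the distal share is above the promoter share in every decile above the lowest, and both are 0 in the lowest.

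Promoters held 1758 of the 4182 sites (42.0%, 40.5 to 43.5%), introns 24.7%, exons 3.92% and intergenic DNA 29.4%. Sites with narrower footprints alone were 32.003% promoters, 33.7% intronic, 4.64% exonic and 29.6% intergenic, and sites without a footprint were 42.4% promoters. Distal sites with a wide footprint were also nearer to a start, at a median of 9225 bp against 12764 bp. Among the promoter sites 87.1% had a protein-coding gene as the nearest start, against 84.6% of promoter sites with narrower footprints alone. By chromosome, the share of sites holding a wide footprint ran from 3.08% on X to 6.12% on chromosome 17.

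A member sat near the middle of its site. Its centre was a median of 12 bp from the site's centre in both libraries, against 46.5 bp in replicate 1 and 45.5 bp in replicate 2 for narrower repeated footprints. Both kinds of site had a median width of 220 bp.

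Members were GC-rich, but less so than narrower footprints. GC content was 63.1% in replicate 1 and 62.7% in replicate 2 in members, against 68.0% and 67.7% in narrower repeated footprints and 51.7% and 51.5% in flanks of the same width centred 300 bp to either side. Members at promoters were at 67.4% and 67.2%, and distal members at 59.8% and 59.1%. Soft-masked repeat sequence made up 5.39% and 5.24% of member bases, against 15.9% and 16.1% of flanking bases. The CpG dinucleotide stood at 0.673 and 0.674 of the frequency that base composition gives in members, against 0.685 and 0.687 in narrower repeated footprints and 0.510 and 0.507 in flanks.

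The CTCF core was the commonest pattern in the members. An exact match to a 12-base degenerate core, on either strand and with at least 6 bases inside the footprint, was present in 19.4% ± 0.00712 of members (mean and SD of the 2 libraries), against 0.0395% ± 0.00804 of flanks. With 1 mismatch allowed, 45.6% ± 0.0215 of members and 0.525% ± 0.0233 of flanks held a match, and with 2 mismatches 59.7% and 4.21%. Distal members held a match with up to 1 mismatch in 67.7%, and promoter members in 17.9%. In windows of 50 bp around the centre, which put footprints of different width on the same footing, 45.6% of members and 7.95% of narrower repeated footprints had one.

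The difference from other sites was present at each height. In the lowest of 5 equal height bands, 61.5% of 26 sites with a wide footprint and 17.0% of 8470 with narrower ones alone held a CTCF match with up to 1 mismatch. In the middle band the shares were 76.7% of 726 and 23.99% of 7927. In the highest band, where most sites are promoters, they were 23.7% of 1847 and 8.01% of 6904. Seen from the sequence, 22.4% of the 3806 exact core matches within peaks of replicate 1 and 21.9% of the 3891 in replicate 2 lay under a member, and 91.1% and 90.3% under a footprint of any width.

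**Figure D3:**
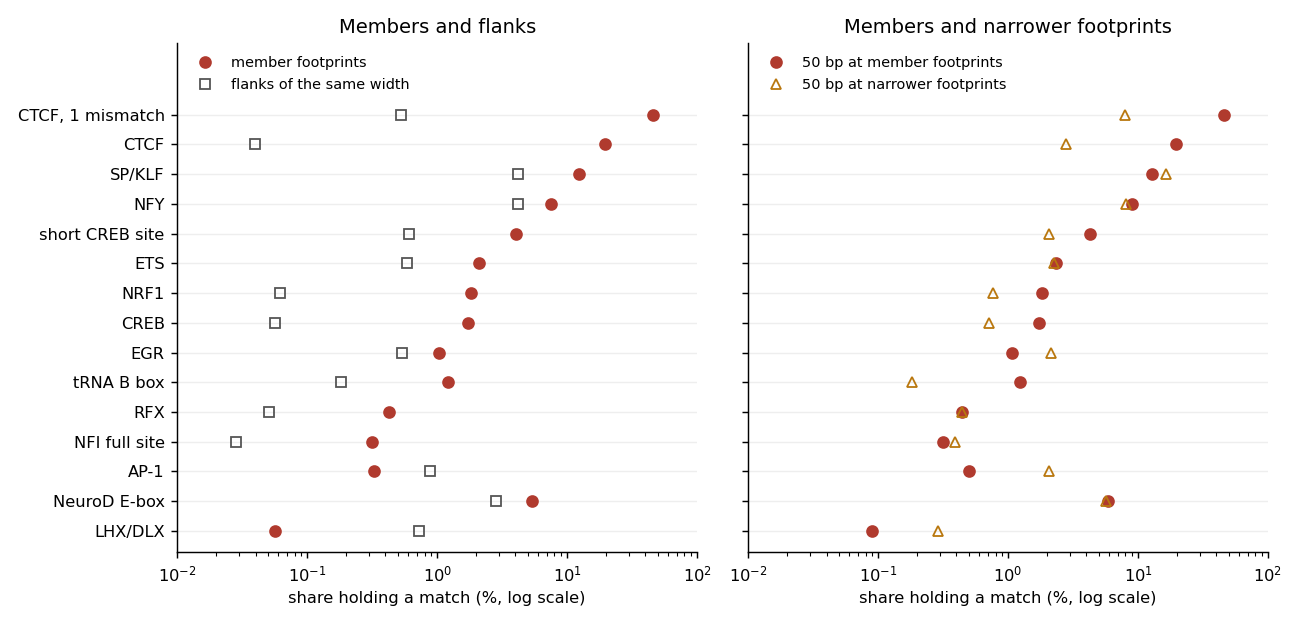
Share (%, log scale, mean of the 2 libraries) holding a match to each named sequence pattern. Left, member footprints (red circles) and flanks of the same width (open squares); right, 50 bp windows at members (red circles) and at narrower repeated footprints (open triangles). CTCF is at 45.6% in members with 1 mismatch allowed and at 0.525% in flanks, and SP/KLF is lower at members than at narrower footprints.

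At the CTCF core the members came mostly in a shorter and a longer form, parted by the upstream edge. Upstream means the side of the core opposite its G-rich end, the left side as printed above. The distance from the core to the upstream edge had peaks at 5 and 22 bp among members of replicate 1 and at 8 and 23 bp among those of replicate 2. A distance of 13 bp, placed in the trough after seeing the data, parts a near class from a far class. Replicate 2 also had a smaller rise at 14 and 15 bp, with 79 and 77 members, against 38 at 12 bp and 49 at 19 bp. The cut at 13 bp puts that rise in the far class. The far class held 978 of 2023 members in replicate 1 (48.3%, 46.2 to 50.5%) and 1480 of 2018 in replicate 2 (73.3%, 71.4 to 75.2%). Its median width was 42 bp in both libraries, against 32 and 33 bp in the near class. The downstream edge was at medians of 10 and 9 bp in the far class against 14 and 13 bp in the near class. Since a member must reach 30 bp, one that ends near the core upstream has to extend farther downstream. Among all footprints at such a match, whatever their width, the order was the other way, with medians of 9 and 8 bp in the far class against 7 and 5 bp in the near class. The bases downstream of the core also differed between the classes, as given below, and whether they bear on the downstream edge was not tested. Among all footprints at such a match, of any width and with the members included, 12.2% of 10644 in replicate 1 and 29.5% of 10883 in replicate 2 were far. The mice thus differed in the same direction as among the members. Members made up 978 of these 1302 far footprints in replicate 1 and 1480 of 3208 in replicate 2.

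**Figure D4:**
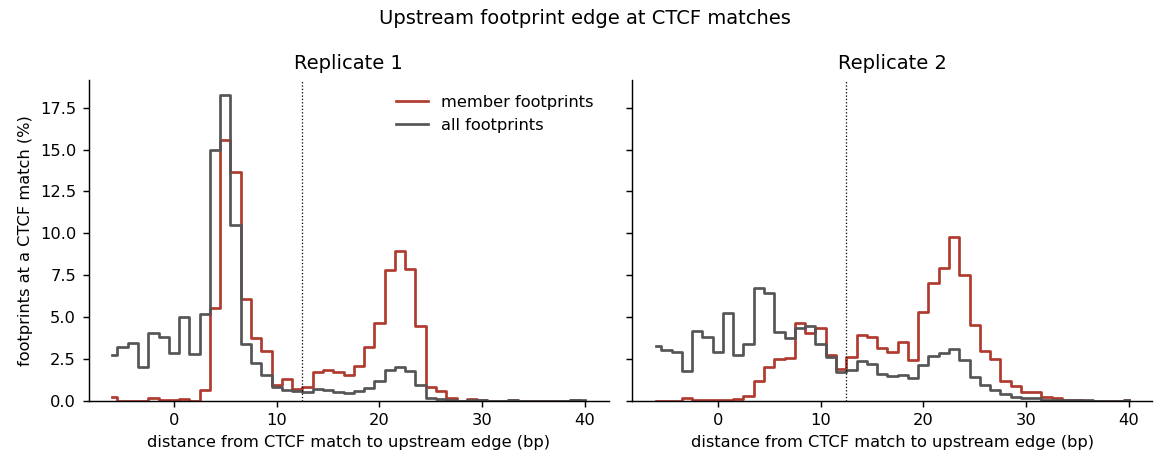
Distribution of the distance in bp from the CTCF core match to the upstream footprint edge (x; negative values lie inside the match), as a share (%) of member footprints (red) and of all footprints at a match (grey), in replicates 1 and 2. The dotted line marks 13 bp. Members have a peak on either side of it, at 5 and 22 bp in replicate 1 and at 8 and 23 bp in replicate 2. Replicate 2 has a smaller rise at 14 and 15 bp.

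At the 2016 matches under a member in both mice, 918 were far in both and 478 near in both. Another 562 were far in replicate 2 alone and 58 in replicate 1 alone. The upstream distances of the 2 mice had a Spearman rho of 0.615 over these matches. Site heights were close between the classes: the far-in-both matches had medians of 2.15 in replicate 1 and 1.77 in replicate 2, the near-in-both ones 1.95 and 1.57. An exact core was present in 37.0% of the far-in-both and 49.6% of the near-in-both matches.

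The far class carried a further motif in the upstream DNA, which was rare in the near class. In the 918 far-in-both matches, T was found at position -17 in 56.9%, G at -16 in 74.6%, C at -15 in 66.9%, A at -14 in 59.2%, T at -12 in 78.0%, C at -10 in 75.5% and C at -9 in 63.8%. Position -1 is the base just before the core. In the near-in-both matches the most frequent base of those 9 positions never exceeded 34.1%. Written as letters, the pattern is TGCANTNCC, with 7 defined bases. At least 5 of the 7 were present in 581 of 918 far-in-both matches (63.3%, 60.1 to 66.3%) and in 12 of 478 near-in-both matches (2.51%, 1.44 to 4.34%). The matches that were far in replicate 2 alone were between them, at 91 of 562 (16.2%, 13.4 to 19.5%). Placed 12 bp farther upstream as a control position, the same letters reached 5 in 1.85% of far-in-both and 1.46% of near-in-both matches. The letters were read from these same matches, so the counts describe them and are not an independent test. As an alternative added after seeing the data, letters read from the 472 far-in-both matches on odd-numbered chromosomes alone were again TGCANTNCC. On the other chromosomes at least 5 of them were present in 272 of 446 far-in-both matches (61.0%, 56.4 to 65.4%) and in 4 of 193 near-in-both matches (2.07%, 0.809 to 5.21%). The classes also differed in bases downstream of the core, where positions count the first core base as 0. G at position 18 was in 61.1% of near-in-both and 37.8% of far-in-both matches, and C at position 13 in 61.7% and 42.5%. Other bases went the other way, such as A at position 12, at 40.6% and 47.8%. CTCF is known to bind an upstream motif with zinc fingers beyond those that read the core. The Psrc1, Mxd3 and Pcp4 sequences above each carry 6 of the 7 letters. They were chosen among far loci with at least 6, so they illustrate the motif and are no support for it. The Snord12, Ckb and Kif1b sequences carry 0, 2 and 1 of the letters. They were chosen among near loci with few, so they are no support either.

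CTCF cores were also sorted by the number of upstream letters they carried, as a description. Many of the cores with the letters are those the letters were read from, so the shares that follow are partly fixed by that choice and are no further support. Of the cores (up to 1 mismatch) in peaks of replicate 1, 11.3% of 1139 with none of the 7 letters lay under a member, 20.5% of 1462 with 4, and 53.1% of 241 with all 7 (46.8 to 59.3%). In replicate 2 the shares were 11.9% of 1108, 19.4% of 1535 and 45.4% of 284 (39.7 to 51.2%). With the letters read on odd-numbered chromosomes and the cores counted on the others, the share under a member was 10.1% of 526 with none and 56.3% of 103 with all 7 in replicate 1, and 10.5% of 515 and 47.6% of 124 in replicate 2. This split is no independent support for membership either, because a footprint with a far edge mostly meets the width rule on any chromosome. Of all far footprints at a core, only 101 of 1302 in replicate 1 and 234 of 3208 in replicate 2 were under 30 bp. Median peak height over the cores with 0 to 7 letters ran from 1.34 to 1.54 in replicate 1 and from 1.06 to 1.20 in replicate 2, and was highest at 6 letters in both. Over all footprints at a core, whatever their width, a far edge was found at 3.91% of those with none and 50.5% of those with all 7 letters in replicate 1, and at 17.5% and 58.3% in replicate 2.

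**Figure D5:**
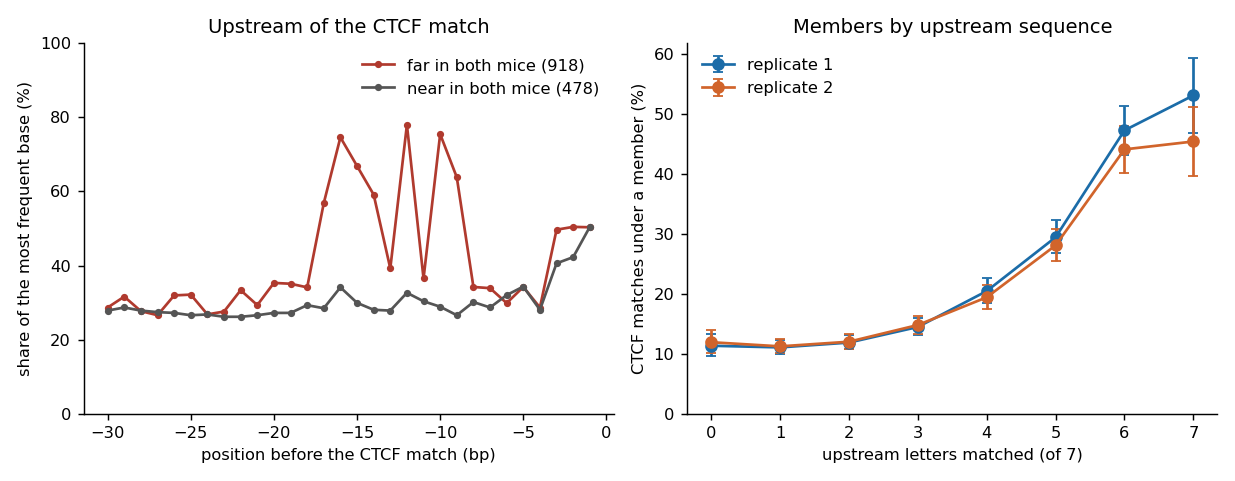
Left, the share (%) of the most frequent base at each position before the CTCF core, for the 918 matches far in both mice (red) and the 478 near in both (grey). Right, the share (%) of CTCF cores in peaks that lay under a member, by the number of the 7 upstream letters present, with 95% Wilson intervals; it is 11.3% at 0 letters and 53.1% at 7 in replicate 1 (blue).

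Some near-class matches had the upstream stretch protected on its own. A separate footprint lay upstream at 71 of the 478 near-in-both matches in replicate 1 (14.9%) and at 98 in replicate 2 (20.5%). In the far class the member itself covers that stretch, so the classes were not compared.

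Neighbouring members with a CTCF core pointed the same way along the chromosome in 964 of 1996 pairs (48.3%), towards each other in 520 (26.1%) and away from each other in 512 (25.7%). Pairs 1 to 50 kb apart were different in makeup: 29 of 174 were convergent (16.7%) and 68 divergent (39.1%). Of the 852 pairs 50 to 500 kb apart, 27.1% were convergent and 25.7% divergent. No test was made of these shares.

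Members outside the CTCF class were sorted by a few of the other patterns, and the largest group held none of those few. Each member was put in the first class it met, in the order tRNA gene, CTCF with up to 1 mismatch, short CREB site ACGTCA, NRF1, NFY, SP/KLF, none of these. The CTCF class was 45.6% of members and the tRNA class 1.76%, followed by short CREB site at 3.83%, NRF1 at 1.82%, NFY at 5.41% and SP/KLF at 8.37%. The other 33.2% ± 0.101 held none of them. The remaining searched patterns were not used for this sorting, and such members may hold them. A CTCF core with 2 mismatches was not used either, and it was in 59.7% of all members against 4.21% of flanks. Among distal members its share was 84.2%, against 67.7% with up to 1 mismatch. The promoter share was 17.1% in the CTCF class, against 91.4% for the short CREB site, 91.3% for NRF1, 84.4% for NFY and 89.9% for SP/KLF. It was 55.2% in members with none of these patterns.

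CREB family factors, which pass cyclic AMP and calcium signals to genes, bind the palindrome TGACGTCA. It was in 1.74% ± 0.00222 of members, against 0.0565% ± 0.0159 of flanks, and in 50 bp windows in 1.74% of members against 0.712% of narrower repeated footprints. Of all such palindromes in peaks, 8.80% of 886 in replicate 1 and 9.45% of 825 in replicate 2 lay under a member. Its last 6 bases, ACGTCA, here called the short CREB site, added after the commonest 6-base words had been seen, was in 4.08% ± 0.117 of members and 0.604% of flanks. As a control, each pattern was also counted with its letters reversed but not complemented. The reversed short site ACTGCA was in 8.35% and 8.998% of members, more often than the site itself. On the other strand ACTGCA reads TGCAGT, which overlaps the letters upstream of CTCF cores given above. At promoters, members of that class were centred a median of 16 bp before the nearest start in both libraries, and 73.0% and 72.8% lay within 100 bp before it.

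NRF1, a regulator of genes for respiration and other housekeeping functions, binds the palindrome CGCATGCG. It was present in 1.82% ± 0.0136 of members, 0.0621% of flanks and, in 50 bp windows, 0.768% of narrower repeated footprints. Members of the NRF1 class at promoters were centred a median of 18.5 bp before the start in replicate 1 and 18 bp in replicate 2. The highest of their sites was the promoter of Snrnp70, which encodes a protein of the U1 spliceosomal particle, with heights of 12.97 in replicate 1 and 13.1 in replicate 2.

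NFY, a trimer that binds the CCAAT box of many promoters, matched in 7.47% ± 0.0894 of members and 4.21% ± 0.181 of flanks. In 50 bp windows the difference from narrower repeated footprints was small, 9.04% of members against 8.07%. Members of the NFY class were the widest of the promoter classes, with medians of 38 and 41 bp, and were centred a median of 57 bp before the start in replicate 1 and 55 bp in replicate 2. More than 1 CCAAT was present in 21 of 328 members with any in replicate 1 and in 23 of 333 in replicate 2. Their mean widths were 43.5 and 46.7 bp, against 38.6 and 41.5 bp with a single box. The commonest spacing was 17 bp, seen in 7 of 22 and 7 of 25 pairs. The Pan2 promoter printed above holds 3 boxes within a locus of 69 bp that was called as 45 bp in replicate 1 and 69 bp in replicate 2. Pan2 encodes a subunit of a complex that shortens messenger RNA tails.

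Other patterns were counted in the same way. The SP/KLF box GGGCGG was in 12.3% ± 0.415 of members and 4.18% of flanks, but in 50 bp windows it was less common in members (12.9%) than in narrower repeated footprints (16.3%). With its letters reversed, GGCGGG, it was in 10.4% and 10.99% of members, close to the share of the box itself. EGR (GCGTGGG) was at 1.07% against 2.15% in the same windows, and the ETS pattern CCGGAAG at 2.34% against 2.24%. AP-1 (TGANTCA), bound by the Fos and Jun proteins, was in 0.328% of members and 0.881% of flanks, and in windows in 0.497% of members against 2.06% of narrower repeated footprints. The homeodomain pattern TAATTA was in 0.0565% of members and 0.723% of flanks. The NeuroD E-box CAGATG was in 5.38% of members and 2.86% of flanks, and in windows 5.92% of members against 5.62% of narrower ones. Some forms of the CTCF core contain the letters CAGATG, and matches inside CTCF cores were not counted apart. For REST, which silences neuronal genes outside neurons and reads a long motif, none of 74 matches in peaks of replicate 1 and none of 51 in replicate 2 lay under a member, which allows up to 4.93% and 7.00%. Footprints of some width covered 12 and 6 of these matches. RFX was in 0.429% of members and the full NFI site in 0.316%, both at about the share of narrower repeated footprints in windows, 0.441% and 0.393%. In the same windows MEF2 was at 0.542% and 0.610% of members against 0.502% and 0.487% of narrower repeated footprints, in replicates 1 and 2. SOX (ACAATGG) was at 0.451% and 0.497% of members against 0.321% and 0.296%.

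Members without a CTCF match within 2 mismatches had their own frequent words. Of 1782 such members in each library, 9.3996% held TGCGCA against 0.673% of their flanks, 7.01% held ATGACG against 0.533%, 6.06% held GCATGC against 0.491%, and 5.70% held ATTGGC against 0.814%. ATGACG and GCATGC overlap the CREB and NRF1 patterns in part, and ATTGGC contains the CCAAT box on the other strand.

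Members were also counted at tRNA genes. RefSeq lists 403 tRNA genes on the chromosomes used, of which 201 had a peak in replicate 1 and 180 in replicate 2. A member lay on or next to 69 and 66 tRNA genes, 63 of them the same in both mice, and 2 of the 66 had no peak in replicate 2. Of the genes with a peak, 69 (34.3%) and 64 (35.6%) had a member. By number, 1.87% of members in replicate 1 and 1.65% in replicate 2 were at a tRNA gene, against 0.156% and 0.171% of narrower repeated footprints. The 63 genes belonged to 16 amino acids, with most for serine and threonine (7 each).

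Most of these footprints covered the end of the gene that holds the B box. Counting from the first base of the gene as 1, 61 of 83 members in replicate 1 were centred 20 bp or more into the gene, with a median extent of base 39 to base 75. In replicate 2 61 of 73 were, with a median extent of base 41 to base 77. The median tRNA gene is 72 bp long. The B box letters GGTTCGA, added after seeing the data, were in 52 of the 61 in each library (85.2%). The other 22 and 12 members lay over the 5′ end, from base -46.5 to base 7 in replicate 1 and from base -45 to base 11.5 in replicate 2 at the median, and none of them held the B box. They were wider, at a median of 56 bp in both mice, against 36 and 37 bp at the B box. Both kinds were present together at 14 genes in replicate 1 and at 7 in replicate 2. Among tRNA genes with a peak, 42.0% of those with the exact B box letters had a member in replicate 1 and 43.3% in replicate 2, against 15.5% and 17.0% of those without. tRNA genes occur in near-identical copies: the central 30 bases were found once in the genome at 39 of 83 tRNA loci, against 4322 of all 4434 member loci (97.5%). How reads were placed among copies is not given in the sources used here, so a value at a given tRNA gene may include reads of its copies.

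Most sites with a member held a single one. In replicate 1, 3973 of 4180 sites had 1, 195 had 2 and 12 had 3, and in replicate 2 3970 of 4174 had 1, 191 had 2 and 13 had 3. Sites with 2 or more were promoters in 76.3% and 77.0%, against 40.2% and 40.3% of sites with 1. The gap between neighbouring members of a site was a median of 42 bp in replicate 1 and 39 bp in replicate 2. Along the chromosome, neighbouring sites with a wide footprint were a median of 208195 bp apart in replicate 1 and 207905 bp in replicate 2. Both figures depended on the rule. With every wide footprint of 1 library, repeated or not, sites were 130305 bp apart in replicate 1 and 85007 bp in replicate 2, and 6.06% and 10.7% of them had 2 or more, against 4.92% of member sites on average. At widths of 25, 35 and 40 bp the distance was 102840, 483420 and 857260 bp and the share 7.41%, 3.30% and 1.71%.

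The 5 highest of the sites with 3 members in each mouse were all promoters. The Ruvbl2 promoter (chr7:45434601-45434880), of a chromatin-remodelling ATPase, had heights of 12.3 and 14.96 in replicates 1 and 2 and members with the NFY and SP/KLF patterns. The Acin1 promoter (chr14:54686561-54686980), of a splicing-related protein, had 15.2 and 11.4. The Fbh1 promoter (chr2:11777501-11777800), of a DNA helicase, had 12.1 and 13.8 with NFY in 2 members. The Cyp46a1 promoter (chr12:108333961-108334360), of the neuronal enzyme that hydroxylates cholesterol for its removal from the brain, had 12.4 and 10.4 with SP/KLF in each of its 3 members. The Pef1 promoter (chr4:130107441-130107640) had 11.3 and 10.6, with an NFY, a short-CREB-site and an unassigned member.

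The widest member lay in the Zmynd8 promoter at chr2:165884719-165884796, 72 bp in replicate 1 and 78 bp in replicate 2, with a CCAAT box. Zmynd8 encodes a reader of acetylated histones, and its site had heights of 8.99 and 8.39. Next were members at the Leprot promoter (65 and 69 bp), in an intron near Myl12b (65 and 66 bp), at a tRNA gene near Rnase4 (61 and 67 bp) and at the Rbm27 promoter (60 and 66 bp), the last with a CCAAT box.

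Some of the highest sites lie in sequence that occurs more than once. Sites were ranked by the mean of the heights in the 2 libraries, and the order within a library differs: in replicate 2 Dynlt1b and Rab11b stood above Il31ra and Gm15564, and in replicate 1 2610005L07Rik and Bahcc1 stood above Gm21887. The highest was intergenic, at chr3:5860361-5860530, with heights of 41.6 in replicate 1 and 22.0 in replicate 2, and the central 30 bases of its member occur 7 times in the genome. The next 4, in an intron of Il31ra (31.4 and 16.2), in intergenic DNA near Igf2bp3 (26.5 and 18.5), beside Gm15564 (23.7 and 16.4) and at Gm21887 on X (14.1 and 20.3), each had at least 1 locus found 2 to 4 times, and so did the promoter of 2610005L07Rik (19.8 and 11.9), found 5 times. The other 4 of the 10 highest were single-copy promoters. They were those of Bahcc1 (17.0 and 14.9), of the dynein light chain gene Dynlt1b (11.6 and 18.5), of Rab11b, a GTPase of recycling endosomes (11.3 and 17.6), and of Ankhd1 (13.9 and 14.997). Among single-copy loci alone the CTCF share with up to 1 mismatch was 46.2% in both libraries.

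By pattern, the highest sites with a match were the promoter of Gm17597 next to Tef for the full NFI site (14.7 and 7.82), those of Ip6k1 for YY1 (11.5 and 13.7), Rbm39 for ZBTB33/BANP (12.04 and 11.998) and Tbccd1 for ETS (12.4 and 10.2), and the Prmt5 promoter for the B box (12.7 and 15.5). The Zfp143 promoter, of a zinc-finger activator, led the short CREB site (11.7 and 15.97). For ZNF143 it was the Gm21887 site described above, for SP/KLF that of 2610005L07Rik, and for CTCF the promoter of Gm21769 (14.6 and 12.7), where the member's central 30 bases occur 4 times. The coding genes nearest to the most such sites were Camta1, Hist1h4h, Pdcd6ip, Ptma, Trim7 and Zfp516, with 5 each. They had 48, 11, 57, 12, 10 and 42 accessible sites in that order. Next came 2900026A02Rik, Dad1, Dlgap1 and Mvb12b with 4 each, of 18, 30, 36 and 22 sites.

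Lists of genes, chosen with earlier results known, were looked up for repeated wide footprints at their promoters. Across the genome 1815 of 21728 coding genes had such a site within 1000 bp of a start, 13.04% of the 13919 with any site there. Of the excitatory-neuron list 2 of 12 genes had one. Among them was Tbr1 (heights 1.34 in replicate 1 and 1.61 in replicate 2), which encodes a transcription factor of cortical projection neurons. None was found at the 9 inhibitory-neuron, 7 astrocyte, 7 oligodendrocyte, 5 microglia or 5 endothelial genes, of which 7, 6, 4, 1 and 2 had any site. With so few genes per list these counts were not tested.

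Among the activity-induced genes 3 of 11 had a site with a wide footprint. They were Jun (9.39 in replicate 1 and 13.5 in replicate 2, with an SP/KLF member), Arc (9.30 and 4.61, with 2 SP/KLF members), which encodes a synaptic capsid-like protein, and Fosb (7.34 and 4.71). The Fosb site was centred 889 bp into the gene, and its member held a short CREB site. The clock list had 3 of 10. Per1 (11.4 and 13.9) and Cry1 (10.3 and 4.87) encode repressors of the circadian loop, and Dbp (10.9 and 11.2) an output factor of it. Of the 9 genes for chromosome architecture 4 had one: Stag1 (13.2 and 6.46) and Smc3 (8.72 and 6.89), which encode cohesin subunits, Mau2 (6.81 and 3.63) of the cohesin loader, and Ctcf itself (6.83 and 2.44). The members at Stag1 and Smc3 included a CTCF core, and the member at Ctcf had none of the patterns used to sort members.

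Of 14 imprinted genes 2 had such a site, Kcnq1ot1 (3.58 and 6.43, with an NFY member), whose non-coding transcript silences its neighbours, and Grb10 (2.63 and 1.31), a growth-restraining adaptor. The genes of factors known from footprints gave 4 of 16, which were Zfp143, Yy1 (9.92 and 4.81), Mef2d (6.08 and 3.56) and Nfia (2.79 and 4.32, with an NFY member).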

How the data were processed

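For each of the 2 DNase-seq libraries the authors deposited footprints, false discovery rates and 2 peak lists on mm10 (GRCm38), which the deposited file lists trace to filtered alignments of a single library. Aligner, callers, thresholds and read depth: not given in the sources used here. Peak height, as the authors deposited it, is a signal whose normalization is not stated, so levels were read within a library. The deposited false discovery rate is a q-value (adjusted p-value) for each stretch of bases, listed up to 0.05. The score the authors gave each footprint was 0.01 throughout, and only positions were used.

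Sites were peaks of the shorter lists of both mice merged where they overlap or touch, and a member belongs to the site holding its midpoint. Annotation was GENCODE M21, tRNA genes and sequence RefSeq GRCm38.p6. In all 25 sequence patterns, and 2 added after seeing the data, were searched on both strands in footprints, in flanks of the same width 300 bp away and in 50 bp windows. A match counted when at least 50% of it lay in the footprint. Coordinates are 1-based. No test was made, since the study has 1 group, and shares carry Wilson intervals (95%). Sites were named by rule: the 10 highest, the 5 widest members, the 5 with most members, the 10 genes with most such sites, the highest per pattern, and sites at genes of the lists. Some sites that the rule names are not reported here. The members and lists were chosen with earlier results of these data known. Alternatives were other widths, overlaps, peak lists, promoter windows, match rules and each library alone. Member and match finding were checked on simulated intervals and letters. Tools were Python 3.11.15, NumPy 2.4.6, pandas 2.3.3, SciPy 1.17.1, pysam 0.24.0, bedtools 2.31.1 and matplotlib 3.10.9.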

Additional observations from a re-analysis of the deposited data

How the results depend on the processing

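The number of members depended on the width asked for: 8860.5 per library on average at 25 bp or more, 1958.5 at 35 bp and 1082.5 at 40 bp, against 4427 at 30 bp, and 8120, 1879 and 1054 sites against 4182. Without a partner in the other mouse, the wide footprints of a single library lay in 6664 to 9988 sites. Promoters held 41.9%, 44.1% and 39.1% of the sites at 25, 35 and 40 bp, 43.5% with either library alone, 42.7% among the higher peaks, 41.9% with the footprint wholly inside the peak, 37.9% within 500 bp and 51.0% within 2500 bp of a start, and 38.0% with coding genes alone. The height ratio over sites with narrower footprints alone was 1.89, 2.14 and 2.14 at the 3 widths, 2.83 with the longer peak lists, 1.80 at distal sites and 1.94 to 2.02 with either library's wide footprints alone. The exact CTCF share was 18.7%, 17.1% and 18.5% at the 3 widths, 19.4% with either other overlap rule, 19.3% with the whole match inside, 29.9% at distal sites, 45.6% with 1 mismatch, 15.8 to 16.9% with either library alone and, added after seeing the data, 19.8% at single-copy loci. The far share at CTCF cores, averaged over the libraries, was 66.8% with the classes parted at 10 bp and 53.5% at 16 bp, against 60.8% at 13 bp. No paired analysis was possible because the study has 1 group. The libraries are few and their depth is unknown, the labels give both mice the same donor, multi-copy sequence was not removed and CAST/EiJ alleles were not examined; a lack of a wide call does not show a lack of protection.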

Other observations

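Several patterns differed in share between distal and promoter members. The NeuroD E-box CAGATG was in 8.16% of distal and 1.90% of promoter members, MEF2 in 0.891% and 0.182%, and SOX (ACAATGG) in 0.668% and 0.156%. The reverse held for ETS (CCGGAAG), at 0.385% of distal and 4.36% of promoter members, and for ZNF143, at 0.203% and 1.06%. The ZBTB33/BANP pattern TCGCGAGA was in 0.623% of promoter members and in none of the distal ones. For CAGATG, some forms of the CTCF core contain these letters. CTCF cores with up to 1 mismatch were in 67.7% of distal and 17.9% of promoter members. CAGATG outside CTCF cores was not counted, so its share apart from them was not tested.

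Patterns also shared footprints. An ETS match stood with a short CREB site (ACGTCA) in 23 members of replicate 1 and 24 of replicate 2, which was 25.6% and 24.7% of members with ETS and 12.99% and 13.04% of members with the short CREB site. Over all members the short CREB site was in 4.08% and ETS in 2.11%, and among promoter members in 8.18% and 4.36%. No member held an NRF1 match together with a short CREB site. Only 81 members in replicate 1 and 80 in replicate 2 held an NRF1 match, too few to read this absence as a result. None of these pairings was tested.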
